A study of Mus musculus with 12 samples.

Results

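The zymogen granule and exocytosis genes are 10 rows of the deposited table of 46095 genes, taken by name: Sycn, Zg16, Gp2 and Cuzd1, which encode granule membrane and matrix proteins, Rab27b and Rab3d, which encode secretory Rab GTPases, and Vamp2, Vamp8, Stx3 and Stxbp2, which encode SNARE proteins and a SNARE partner. They were measured by RNA sequencing in 12 pancreas libraries from mice at postnatal day 56, 6 labelled wild type (C57BL/6J, WT 1 to 6) and 6 labelled Axl-/-Mertk-/- (AMKO 1 to 6). To induce acute pancreatitis, mice of both genotypes received 10 hourly doses of caerulein, a cholecystokinin analogue, into the peritoneum at 100 µg/kg, and tissue was taken at 12 h from the first dose. No untreated pancreas was analysed here. The sources used here do not give how the receptor genes were disrupted or the strain background of the AMKO mice, so receptor loss and a difference of background cannot be told apart.

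Acinar cells of the pancreas store digestive enzymes in zymogen granules, which lie below the apical membrane until a secretagogue raises cytosolic calcium. Rab proteins on the granule direct it to the membrane, and fusion follows when an R-SNARE on the granule (a VAMP) pairs with syntaxin and SNAP proteins on the target membrane, assisted by Munc18 proteins. At supramaximal caerulein the apical release of granules is blocked, and enzymes become active inside the cell. These steps of secretion are well described in rodent pancreas, and the values below are transcript levels only.

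Library totals ran from 10668637 to 15184371 counts. Axl, one of the targeted genes, stood at 44.4 to 77.1 CPM (counts scaled to a common library size) in wild type and 5.60 to 11.5 CPM in AMKO (-2.69 in log2, SE 0.18). Mertk, the other, had a log2 fold change of -0.03 (SE 0.30), which over a whole gene does not show whether its disruption was present. Digestive enzymes made up 31.2% ± 2.92 of wild type counts and 33.2% ± 3.69 of AMKO counts (SD, n = 6 each, two-sided exact permutation p = 0.325), as the tissue label implies, although Prss1, Prss2, Try4 and Try10 were listed at 0 throughout. In whole tissue, fewer acinar cells and less RNA per acinar cell cannot be told apart.

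Of the 10 genes, 9 had enough counts to be tested, and 1 of them, Cuzd1, differed between the genotypes. Cuzd1 fell in AMKO to 70.6% of its wild type level. The other 8 tested genes were not called, 7 of them with fitted values above 0 (Stx3, Sycn, Zg16, Vamp2, Rab3d, Stxbp2 and Gp2) and 1, Rab27b, below 0. A gene was called at an adjusted p under 0.05 in edgeR's quasi-likelihood test, with Benjamini-Hochberg adjustment over all 13743 tested genes. In that fit 5.78% of all genes were called, 2.41% higher and 3.37% lower in AMKO, so 1 call among 9 genes is near what the whole table gives. At an unadjusted p under 0.05 there were 2 of the 9 genes, Cuzd1 and Stx3, beside 21.9% of all genes. The median log2 fold change of the 9 genes was 0.16, and that of all tested genes was -0.00205. The 10 genes summed to 1.61% ± 0.103 of wild type counts and 1.65% ± 0.144 of AMKO counts (SD, n = 6 each).

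**Figure D1:**
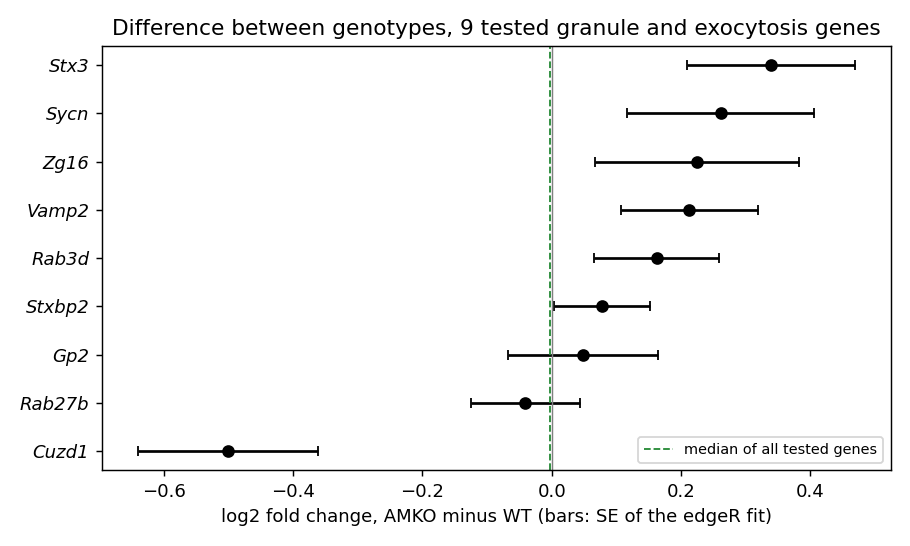
Log2 fold change (AMKO minus WT, horizontal axis) of the 9 tested genes, with bars for the SE of the edgeR fit and a dashed line at the median of all tested genes. Cuzd1 lies at -0.50, apart from the other 8 genes, which lie between -0.04 and 0.34.

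Cuzd1 encodes a granule protein with CUB and zona pellucida domains (also named ITMAP1), and mice that lack it have been reported to develop more severe experimental pancreatitis. The gene lies on chromosome 7 (131308554 to 131322292, minus strand, GRCm38), 105.5 Mb from Axl. Fgfr2 overlaps it on the same strand in the annotation, at a mean of only 6.92 CPM (log2 fold change -0.16). The 16 tested genes within 1 Mb had a median log2 fold change of -0.18, and 0 of them were called, beside 5.78% of all genes. In wild type, Cuzd1 was lowest in WT 2 at 1574 CPM, with a median of 2048 CPM. Its highest value there was 2652 CPM in WT 4. In AMKO the lowest value was 1154 CPM in AMKO 1, the median 1542 CPM and the highest 1784 CPM in AMKO 4. WT 2 was the only wild type library within the AMKO range, and the other 5 lay above all 6 AMKO libraries. The mean fell from 2130 ± 410 to 1504 ± 234 CPM (SD, n = 6 each), a fitted log2 difference of -0.50 (SE 0.14, adjusted p = 0.0496). CPM here are scaled by TMM, a factor per library that sets most genes equal. Scaled to the plain library total the groups did not overlap, at 1743 to 2516 CPM in wild type and 1349 to 1702 CPM in AMKO. All AMKO libraries lay below all wild type libraries for 1.8% of tested genes on that scale and for 2.3% in TMM-scaled CPM.

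The call on Cuzd1 sat at the threshold. Its log2 fold change was below 0 in all 25 alternative fits, from -0.57 to -0.42, but it passed in 7 of them. Those 7, each with the share of all genes that it called lower in AMKO, were total-count scaling (2.13%, adjusted p = 0.00909 for Cuzd1), upper quartile scaling (3.42%), a filter of 1 CPM in 6 libraries (3.54%), DESeq2 (4.43%), limma voom with quality weights (6.22%), an enzyme covariate (3.95%) and the fit without WT 2 (2.23%). Of the 12 fits that each leave out 1 library, the one without WT 2 kept the call (adjusted p = 0.0354), and the other 11 gave adjusted p of 0.0505 to 0.111. It was not called against WT 4 to 6 alone (adjusted p = 0.146) or WT 1 to 3 alone (0.215), a split made because summed liver transcripts were 2.71 to 12.4 CPM in WT 1 to 3 and 23.6 to 55.6 CPM in the other 9 libraries, nor without the 4 libraries poor in leukocyte markers, WT 3, WT 6, AMKO 3 and AMKO 6 (0.284). The covariate was the mean log2 CPM of the digestive enzymes, and with it Cuzd1 was called at -0.55 (SE 0.09, adjusted p = 0.00458).

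Set against the other granule genes within each library, Cuzd1 separated the genotypes without overlap. This ratio was chosen after the values were seen, so it is given as a description with no test, and it is free of library scaling. In wild type, Cuzd1 counts were 17.1% (WT 1), 13.4% (WT 2), 16.0% (WT 3), 17.5% (WT 4), 15.3% (WT 5) and 15.2% (WT 6) of the summed counts of Sycn, Zg16 and Gp2. In AMKO they were 10.3% (AMKO 1), 9.90% (AMKO 2), 8.43% (AMKO 3), 11.7% (AMKO 4), 10.3% (AMKO 5) and 9.79% (AMKO 6). The highest AMKO library lay below the lowest wild type library, as it did for 1.54% of tested genes divided by the same sum. The means were 15.7% ± 1.47 and 10.1% ± 1.06 (SD, n = 6 each), a difference of -0.65 in log2 ratio (SE 0.08). Leaving out 1 library moved the difference between -0.69 and -0.60, and without the 4 leukocyte-poor libraries it was -0.58. Over each of the 8 other tested genes and over all digestive enzymes the mean log2 ratio of Cuzd1 was also lower in AMKO, from -0.84 (over Stx3) to -0.46 (over Rab27b). The groups overlapped for the ratios to Sycn, Rab27b, Rab3d and Vamp2 and did not for the others, all of which share Cuzd1 as numerator. Each ratio also takes in any difference of its denominator. The fitted log2 fold changes of Sycn, Zg16 and Gp2 were 0.26, 0.22 and 0.05, none called, beside -0.50 for Cuzd1.

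**Figure D2:**
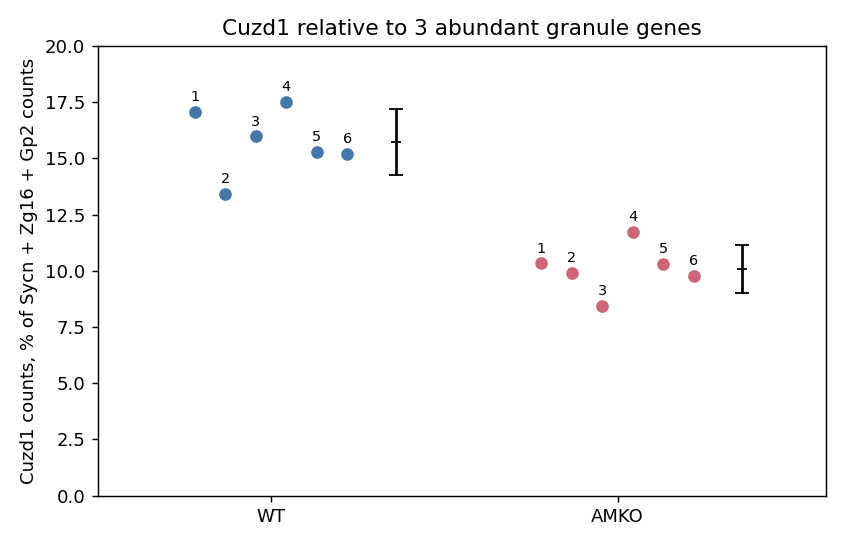
Cuzd1 counts as a percentage of the summed Sycn, Zg16 and Gp2 counts (vertical axis, from 0) in each library, numbered by replicate, with group mean and SD as bars. The AMKO libraries lie at 8.43 to 11.7% and the wild type libraries at 13.4 to 17.5%.

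Some duct markers were called lower in AMKO, as Cuzd1 was. Of 10 tested duct markers, named here after their values were seen, 4 were called lower, beside 3.37% of all genes. These were Krt20 (log2 fold change -2.18), Spp1 (-0.62), Muc1 (-0.53) and Epcam (-0.50). The others were below 0 but not called, among them Cftr (-0.44), Krt7 (-0.30), Sox9 (-0.23) and Krt19 (-0.05). The summed level of the 10 ran from 3094 to 3494 CPM in wild type and from 1814 to 2626 CPM in AMKO, without overlap. Within this sum, Krt20 alone went from a mean of 783 CPM in wild type to 173 CPM in AMKO. As the markers fell so unequally, this sum does not show whether ductal cells were fewer. The part of the ductal cells in the Cuzd1 result was not tested.

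Sycn, Zg16 and Gp2 were the most abundant of the set and did not differ by the test. Sycn encodes syncollin, which lines the inner face of the granule membrane. It ran from 2890 CPM (WT 6) through a median of 3709 to 4213 CPM (WT 4) in wild type, and from 2936 CPM (AMKO 1) through 4444 to 5364 CPM (AMKO 6) in AMKO. The groups overlapped, with AMKO 2, 3 and 6 above every wild type library, and the log2 fold change was 0.26 (SE 0.15, adjusted p = 0.313). The gene lies on chromosome 7 (28540885 to 28542209, plus strand), 2.8 Mb from Axl. The 53 tested genes within 1 Mb of Sycn had a median log2 fold change of 0.20. Of those 53, 1 was called higher and 1 lower, beside 2.41% and 3.37% of all genes. Samd4b overlaps Sycn on the opposite strand, at 58.4 CPM on average. Reads of the pair cannot be told apart unless counting used strand, which the sources used here do not give.

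Zg16 encodes a lectin of the granule matrix that also marks intestinal goblet cells. It ran from 2969 CPM (WT 2) through 3597 to 5248 CPM (WT 3) in wild type and from 2889 CPM (AMKO 1) through 4785 to 5041 CPM (AMKO 6) in AMKO. Wild type and AMKO covered nearly the same range, with 5 of the 6 AMKO libraries in its upper part, and the log2 fold change was 0.22 (SE 0.16, adjusted p = 0.431). The summed level of 8 markers of goblet cells and enterocytes was 3.46 to 8.30 CPM in wild type and 4.25 to 9.74 CPM in AMKO. Clca1 was listed at 0, and 3 of the 8 had enough counts to be tested. The part of intestinal cells in the Zg16 values was not tested. Zg16 lies on chromosome 7 (127050156 to 127087328, minus strand), where Gm44939 and Gm22747 overlap it on the opposite strand.

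Gp2 encodes the major glycoprotein of the granule membrane, held there by a lipid anchor. Wild type libraries ran from 5039 CPM (WT 2) through 5937 to 7068 CPM (WT 3) and AMKO libraries from 5084 CPM (AMKO 5) through 6434 to 7304 CPM (AMKO 3). The 2 ranges nearly coincided (log2 fold change 0.05, SE 0.12, adjusted p = 0.846). Gp2 lies on chromosome 7 (119442537 to 119459285, minus strand), and no annotated gene overlaps it.

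The 250 bases before the start of Cuzd1, Gp2 and Sycn are printed to set the gene that fell beside a pair of abundant granule genes of the same chromosome that were not called. They come from RefSeq (GRCm38.p6, chr7:131322293-131322542 minus, chr7:119459273-119459522 minus and chr7:28540635-28540884 plus), read 5′ to 3′ on the gene's strand. Capitals mark E-boxes (CANNTG, the site of basic helix-loop-helix factors such as PTF1A and MIST1) and TATAAA.
Cuzd1: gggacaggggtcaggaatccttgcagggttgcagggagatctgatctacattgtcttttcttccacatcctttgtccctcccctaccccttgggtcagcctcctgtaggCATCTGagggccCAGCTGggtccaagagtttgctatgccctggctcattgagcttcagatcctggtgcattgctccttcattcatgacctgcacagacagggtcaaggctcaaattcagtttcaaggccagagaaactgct
Gp2: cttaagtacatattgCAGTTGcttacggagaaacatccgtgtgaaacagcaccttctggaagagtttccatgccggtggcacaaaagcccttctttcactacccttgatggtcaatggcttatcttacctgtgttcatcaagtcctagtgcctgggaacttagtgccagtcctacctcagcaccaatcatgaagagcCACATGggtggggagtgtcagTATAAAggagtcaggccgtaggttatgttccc
Sycn: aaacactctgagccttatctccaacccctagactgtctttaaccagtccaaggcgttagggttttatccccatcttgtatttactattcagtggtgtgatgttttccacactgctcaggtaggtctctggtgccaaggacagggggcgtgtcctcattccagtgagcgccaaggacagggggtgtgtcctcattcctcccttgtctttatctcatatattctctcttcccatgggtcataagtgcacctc
The Cuzd1 window held an E-box that begins 141 bases before the start and another, of the form CAGCTG, that begins 129 bases before it, and no TATAAA. The Gp2 window held E-boxes that begin 235 and 53 bases before the start and a TATAAA that begins 32 bases before it. The Sycn window held none of these letters. Over all 32851 RefSeq windows of this length, 66.2% held CANNTG, 13% held CAGCTG and 7.59% held TATAAA (the last on the gene's strand only, the E-boxes on both strands, with every E-box form counted within the first). Of the 7 genes with an entry (Cuzd1, Gp2, Sycn, Rab3d, Stx3, Stxbp2 and Vamp8), 4 held CANNTG, 1 held CAGCTG (Cuzd1), 1 held TATAAA (Gp2) and 1 held CACCTG (Stxbp2; 17.2% of all windows). No window among the 7 held CATATG, the E-box often bound by MIST1, which 3.46% of all windows held. A match is a run of letters and not a measured binding site.

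The secretory Rabs did not differ by the test. Rab3d, a GTPase of the mature granule membrane, ran from 104 CPM (WT 5) through 114 to 119.7 CPM (WT 3) in wild type and from 101 CPM (AMKO 1) through 124 to 151 CPM (AMKO 2) in AMKO. AMKO 2, 3 and 6 lay above all wild type libraries and AMKO 1 below them, so the AMKO libraries were the more spread (SD 20.1 CPM, against 6.81 CPM in wild type). The log2 fold change was 0.16 (SE 0.10), with an adjusted p of 0.348. Rab27b, a GTPase that tethers granules near the apical membrane, was the steadiest in AMKO, from 29.8 CPM (AMKO 3) through 31.1 to 33.2 CPM (AMKO 4), within the wild type range of 26.6 CPM (WT 1) to 37.2 CPM (WT 2) around a median of 32.2 CPM. Its log2 fold change was -0.04 (SE 0.08, adjusted p = 0.819).

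Stx3 encodes syntaxin 3, a target-membrane SNARE found on granules themselves. Wild type libraries ran from 53.4 CPM (WT 5) through 67.1 to 88.8 CPM (WT 1), and AMKO libraries from 63.5 CPM (AMKO 5) through 87.5 to 102 CPM (AMKO 2). Apart from AMKO 5 the AMKO libraries lay at 79.5 CPM or more, and apart from WT 1 the wild type libraries lay at 72.2 CPM or less. Stx3 had the highest fold change of the set, 0.34 (SE 0.13, adjusted p = 0.141), and was not called. It was called by limma voom with quality weights (0.42, adjusted p = 0.0361, with 5.89% of all genes called higher) and in the edgeR fit without AMKO 5 (0.43, adjusted p = 0.0412, with 4.51% called higher), 2 of 25 alternatives, and its log2 fold change stayed above 0 in all of them (0.20 to 0.50).

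Stxbp2 encodes Munc18b, the partner of syntaxin 3. It ran from 117.4 CPM (WT 5) through 121 to 129.8 CPM (WT 6) in wild type, a coefficient of variation of 4.01%, and from 105 CPM (AMKO 1) through 130.03 to 144 CPM (AMKO 3) in AMKO, where the coefficient was 10.5%. Its log2 fold change was 0.08 (SE 0.07), at an adjusted p of 0.578. Vamp2 encodes the R-SNARE VAMP2, found on granules and also the main VAMP of neurons and islet cells. It ran from 27.5 CPM (WT 4) through 33.1 to 34.5 CPM (WT 5) in wild type and from 31.5 CPM (AMKO 2) through 35.2 to 48.3 CPM (AMKO 3) in AMKO, a log2 difference of 0.21 (SE 0.11, adjusted p = 0.259). AMKO 3, 6 and 4 were the 3 highest libraries for Vamp2, at 48.3, 41.3 and 36.5 CPM. They were also the 3 highest of all 12 for summed islet markers, at 1333, 2200 and 1099 CPM against 154 to 928 CPM in the other 9. This match was picked after the values were seen, and the order within the 3 differs. AMKO 5, the lowest library for islet markers, had 32.4 CPM of Vamp2, within the wild type range. The part of islet cells in the Vamp2 values was not tested.

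Vamp8, which encodes the R-SNARE known to be required for regulated secretion in mouse acinar cells, was listed with 6 to 10 counts in wild type and 8 to 11 counts in AMKO, 0.370 to 0.934 CPM and 0.555 to 0.935 CPM. These counts were too few for the test. Gapdh, chosen after its values were seen, had 150 to 318 counts in the same libraries, although it is abundant in most cells. Whether a low count here means low expression was not tested, for Vamp8 or for Gapdh. The cause of the low Gapdh counts was not tested. No annotated gene overlaps Vamp8, and no transcript of another gene matched any of the 10 genes at 95% identity over 300 bases or more. No level of Vamp8 is read from these values.

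**Figure D3:**
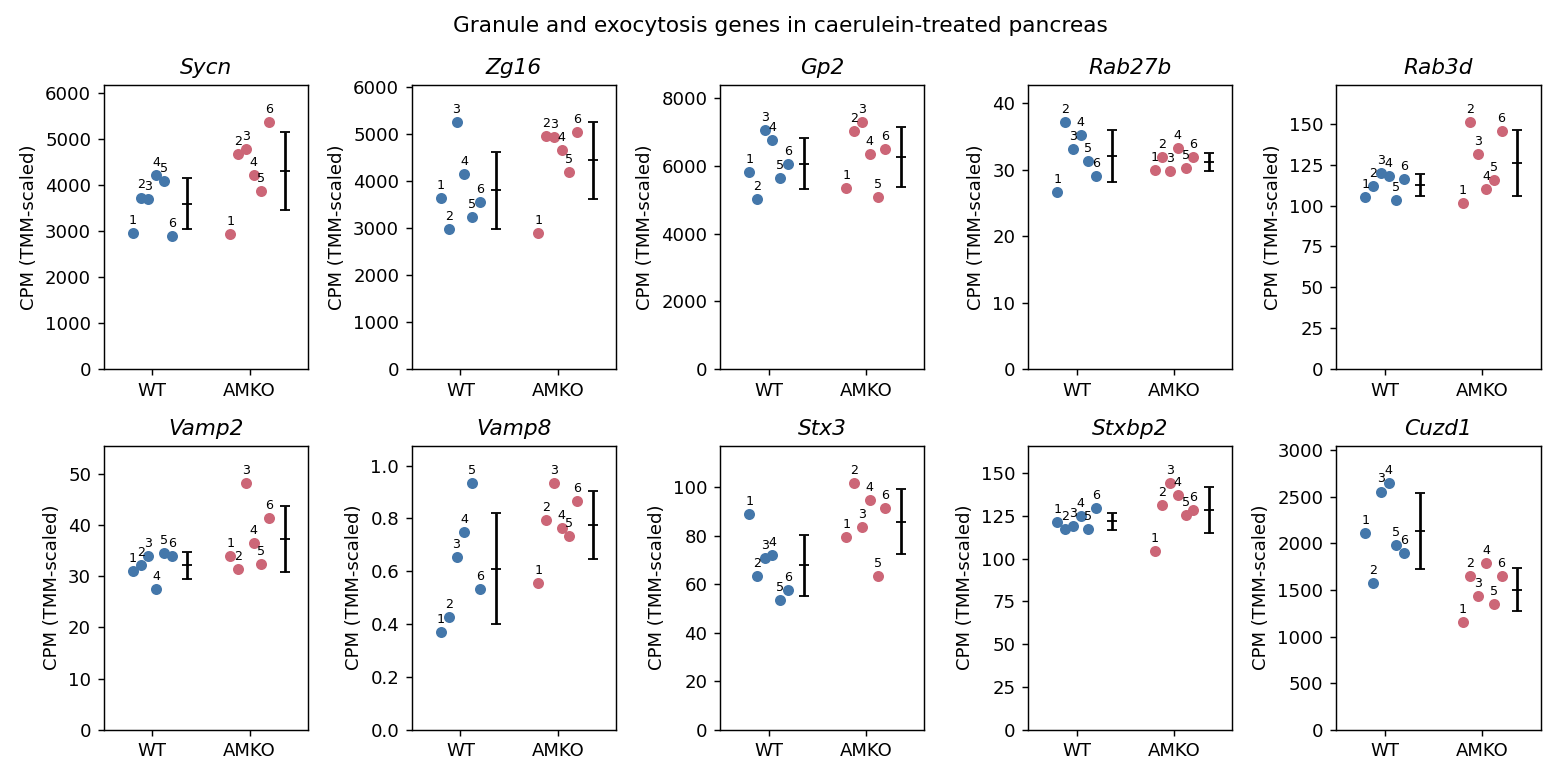
Level of each gene in CPM (TMM-scaled, vertical axis from 0) in every library, numbered by replicate, with group mean and SD as bars (n = 6 per genotype). Cuzd1 is lower in AMKO with WT 2 inside the AMKO range, and AMKO 1 is the lowest AMKO library for 5 of the 9 tested genes. Vamp8 rests on 6 to 11 counts per library.

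Levels were set in order per kilobase of annotated exon. Sycn was highest, at 7101 CPM per kb over the 12 libraries, above Zg16 (3275 CPM per kb) and Gp2 (3088 CPM per kb). Zg16 and Gp2 could not be ordered, since Zg16 was the higher in 6 libraries and the lower in the other 6. Cuzd1 followed at 805 CPM per kb, below Gp2 in every library. The Rabs and SNAREs formed a lower tier, with Stxbp2 at 30.1, Rab3d at 28.4, Stx3 at 13.4, Vamp2 at 9.12 and Rab27b at 2.96 CPM per kb. Stxbp2 was above Rab3d in 10 of 12 libraries with overlapping ranges, and Stx3 above Vamp2 in all 12 although their ranges overlapped. Among the 10 genes, Sycn, Zg16, Gp2 and Cuzd1 were thus in a tier of their own, from 511 CPM per kb (Cuzd1 in AMKO 1) upward. The Rab and SNARE genes of the set reached at most 36.04 CPM per kb (Rab3d in AMKO 2). Granule, Rab and SNARE genes outside the set were not ordered per kilobase. Exon lengths are those of all annotated transcripts merged, which can understate the level of a gene with long rare transcripts.

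The level of each gene was set against that of the digestive enzymes across libraries. Over the 12 libraries, Zg16 rose with the mean log2 CPM of the digestive enzymes (Pearson r = 0.813, permutation p = 0.00123, adjusted over 10 relations 0.0123; Spearman rho = 0.790, permutation p = 0.00329, adjusted p = 0.0329). Sycn did so with r = 0.779 (permutation p = 0.00301, adjusted p = 0.0150) and rho = 0.664 (permutation p = 0.0220, adjusted p = 0.0734). Gp2 had r = 0.677 (permutation p = 0.0162, adjusted p = 0.0404) and rho = 0.706 (permutation p = 0.0132, adjusted p = 0.0658). AMKO 1 and WT 2 lay farthest from the median enzyme mean, by 0.541 and 0.399 in log2, with AMKO 6 close behind at 0.397. Without AMKO 1 and WT 2, r was 0.629 for Zg16, 0.787 for Sycn and 0.480 for Gp2, and without AMKO 1 and AMKO 6, a choice made after seeing the data, it was 0.728, 0.590 and 0.705. Within AMKO, r was 0.941 for Sycn and 0.896 for Zg16 (exact permutation p = 0.00972 and adjusted p = 0.0486 for each), and within wild type 0.582 and 0.743 (adjusted exact permutation p = 0.539 and 0.205). Among the Rab and SNARE genes, Rab3d had r = 0.598 (permutation p = 0.0399, adjusted p = 0.0799; rho = 0.587, permutation p = 0.0490) and Stxbp2 r = 0.546 (permutation p = 0.0643, adjusted p = 0.107; rho = 0.385, permutation p = 0.218), which became 0.488 and 0.0823 without AMKO 1 and WT 2. Vamp8, at 6 to 11 counts per library, had r = 0.728 (permutation p = 0.00673, adjusted p = 0.0224; rho = 0.629, permutation p = 0.0320). As no level of Vamp8 is read from so few counts, no relation is read from this r. Rab27b had r = 0.249 (permutation p = 0.435, adjusted p = 0.482; rho = 0.378, permutation p = 0.228), and 0.726 without AMKO 1 and WT 2, so its coefficient rests on those libraries. Stx3 had r = 0.225 (permutation p = 0.482, adjusted p = 0.482; rho = 0.266, permutation p = 0.403) and Vamp2 r = 0.340 (permutation p = 0.280, adjusted p = 0.350; rho = 0.301, permutation p = 0.344). These r values were not tested against each other, and all values share a library's scaling.

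For Cuzd1 the pooled coefficient was lower than that within either genotype. Over all 12 libraries r was 0.441 (permutation p = 0.151, adjusted p = 0.216; rho = 0.469, permutation p = 0.128), and 0.0798 without WT 2 and AMKO 1 or 0.370 without AMKO 1 and AMKO 6. Within wild type r was 0.824 (exact permutation p = 0.0472, adjusted p = 0.205; rho = 0.771, exact permutation p = 0.103). Within AMKO r was 0.822 (exact permutation p = 0.0444, adjusted p = 0.148; rho = 0.886, exact permutation p = 0.0333). Neither passed after adjustment over the 10 genes. In the plot of gene level against enzyme mean, the AMKO libraries of Cuzd1 lie below the wild type libraries at a like enzyme mean, as the fit with that covariate states in numbers above.

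**Figure D4:**
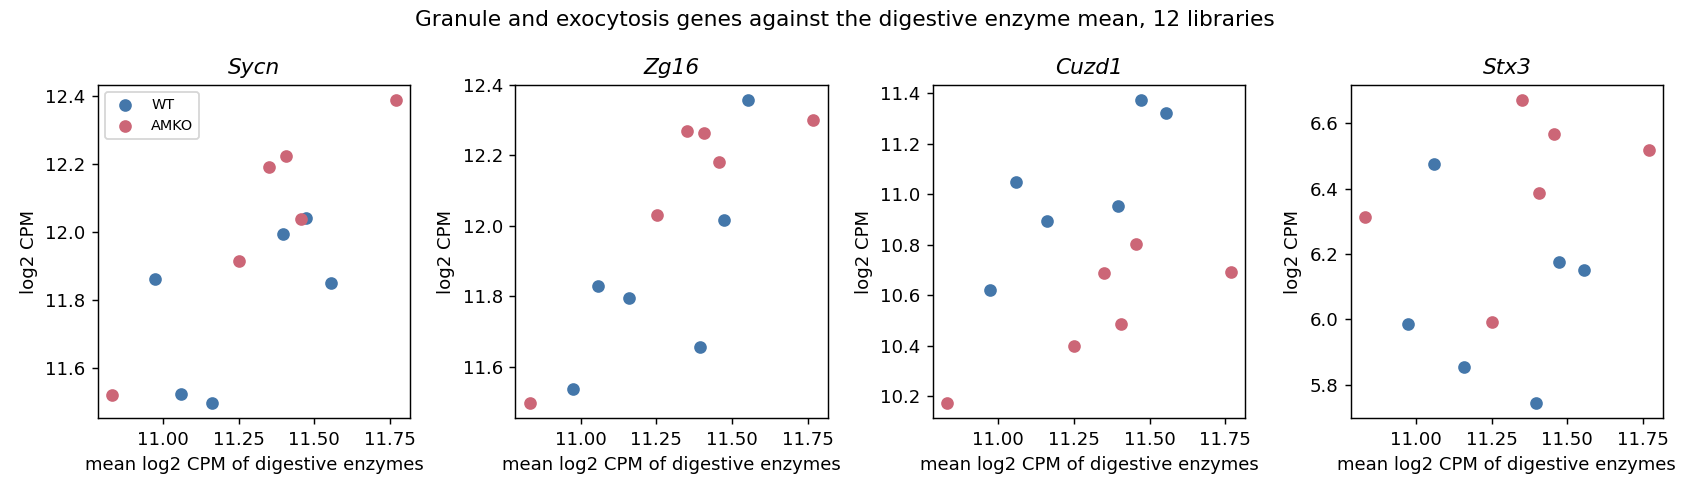
Log2 CPM of Sycn, Zg16, Cuzd1 and Stx3 (vertical axes) against the mean log2 CPM of the digestive enzymes (horizontal axes), 1 point per library, coloured by genotype. Sycn and Zg16 rise with the enzymes across both genotypes (r = 0.779 and 0.813), Cuzd1 forms a lower band in AMKO, and Stx3 has no clear slope (r = 0.225).

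Among the 9 tested genes, 29 of 36 pairs had a positive Pearson r of log2 CPM over the 12 libraries, with a median of 0.36. The pair most alike was Zg16 and Gp2 (r = 0.80), followed by Zg16 with Rab3d (0.74) and Sycn with Rab3d (0.73). Cuzd1 had r with Gp2 of 0.94 within wild type, 0.62 within AMKO and 0.44 over all 12 libraries, and with Zg16 of 0.87, 0.84 and 0.26. These coefficients describe 12 libraries that share scaling and acinar content. Of 11295 other genes searched, those with the pattern most like Cuzd1 were Nucb2, which encodes the calcium-binding protein nucleobindin 2 (r = 0.94), the phospholipase Pla2g1b (0.91) and Rrbp1, a ribosome-binding protein of the rough endoplasmic reticulum (0.91). Pla2g1b (log2 fold change -0.65, adjusted p = 0.0418) and Rrbp1 (-0.34, adjusted p = 0.0436) were called lower in AMKO, and Nucb2 (-0.27, adjusted p = 0.104) was not. A search on all 12 libraries favours genes that share the genotype difference of Cuzd1, so these values are no separate result. Sycn was most like Cela2a (0.92), an elastase, Zg16 most like the signal peptidase subunit Sec11c (0.95), Gp2 most like Hbs1l (0.95) and Stx3 most like Ctdp1 (0.97).

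In the wider secretion machinery, calls were few or absent, and the lists were not tested against the rest of the table, where 21.9% of genes had an unadjusted p under 0.05. Of 18 other tested Rabs, effectors and priming factors, edgeR called none, with 4 at an unadjusted p under 0.05, and DESeq2 and limma voom each called 1 lower (median log2 fold change 0.07). DESeq2 called 4.31% of all its genes higher and 4.43% lower, and limma voom 5.89% and 6.22%. Rab11a, of recycling endosomes (-0.05, SE 0.08), and Unc13b, a priming factor (-0.10, SE 0.10), were the most counted. Rab27a, the paralogue of Rab27b and named here after its value was seen, had -0.55 (SE 0.15, adjusted p = 0.0532). Of 22 other tested SNAREs and SNARE partners, edgeR called none, with 2 at an unadjusted p under 0.05, DESeq2 called none and limma voom 1 higher (median 0.000243). Tpd52, an acinar regulator of calcium-triggered secretion (0.02, SE 0.08), and the granule chaperone Dnajc5 (-0.06, SE 0.11) were the most counted.

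The exocyst, which tethers vesicles before fusion, had 9 tested subunits, none called by edgeR, 2 at an unadjusted p under 0.05, none called by DESeq2 and 1 lower by limma voom, with 8 of 9 fitted values below 0 (median -0.04). Exoc6b (-0.18, SE 0.10) and Exoc5 (-0.02, SE 0.08) were the most counted. Of 12 further granule membrane and matrix genes, edgeR, DESeq2 and limma voom called none, with 2 at an unadjusted p under 0.05 in edgeR (median 0.05). Dmbt1, which encodes muclin, a mucin-like granule protein, had -0.29 (SE 0.21, adjusted p = 0.449) and Serpini2 -0.07 (SE 0.20). Of 23 tested digestive enzymes, 1 was called, Pla2g1b, named above, and 16 had fitted values above 0 (median 0.14).

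Of 8 acinar transcription factors, 2 rose in AMKO. Bhlha15, which encodes MIST1, a regulator of granule and exocytosis genes in secretory cells, rose from a mean of 19.9 CPM to one of 36.2 CPM, by 0.86 in log2 (SE 0.14, adjusted p = 0.0032), with every AMKO library above every wild type library, as for 1.24% of tested genes. Ptf1a, which drives acinar enzyme genes, rose from 78.4 CPM to 181 CPM, by 1.21 in log2 (SE 0.26, adjusted p = 0.0145).

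**Figure D5:**
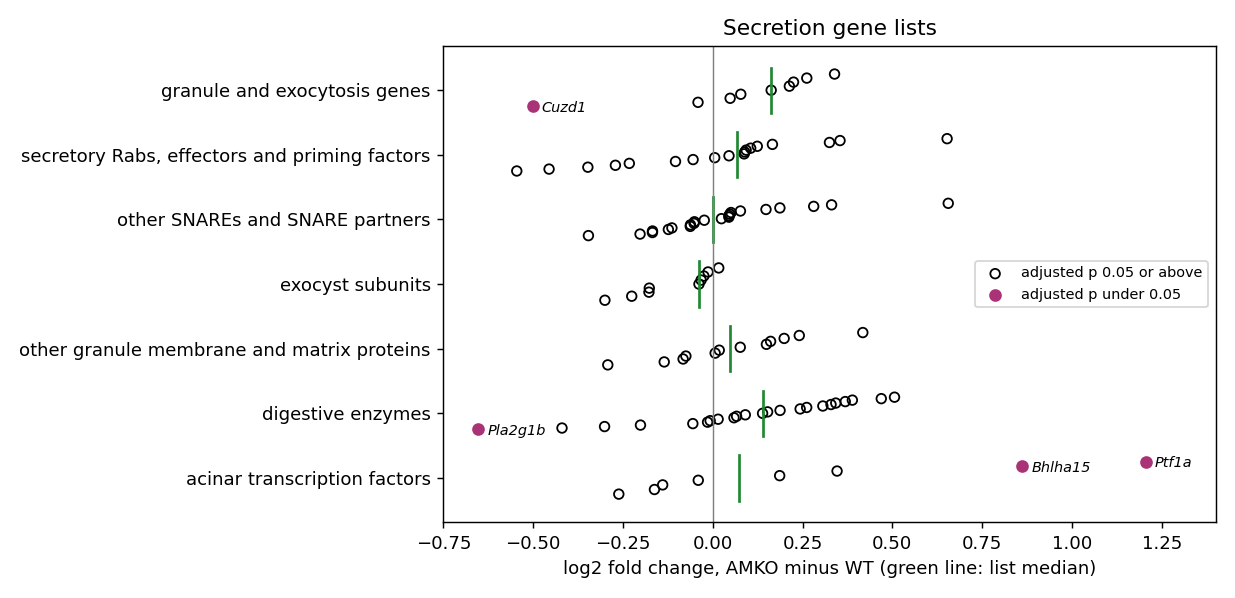
Log2 fold change (AMKO minus WT, horizontal axis) of each tested gene in 7 lists of secretion and acinar genes, filled where the adjusted p is under 0.05, with a green line at each list's median. Cuzd1 and Pla2g1b are called lower, Bhlha15 and Ptf1a higher, and no gene of the Rab, SNARE, exocyst or further granule lists is called.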

How the data were processed

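RNA of 12 caerulein-treated pancreas samples, 6 per genotype, was sequenced. The authors deposited raw counts of reads for each gene, 1 column per sample, matched by sample title. HISAT2 2.0.4 and the mm10 build are named per the submitters' processing notes. The sources used here do not give the counter, annotation, strand use or treatment of reads with several matches. Nothing ties samples to separate mice, so p-values measure the spread between samples.

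The genes, lists and tests were chosen with earlier results of these data known. For AMKO against wild type, edgeR 4.0.16 under R 4.3.3 fitted genotype alone to the raw counts (TMM scaling, filterByExpr, quasi-likelihood F test), and p-values were adjusted by Benjamini-Hochberg over 13743 genes. The procedure was tested on simulated data. CPM use TMM-scaled library sizes, and log2 CPM a prior count of 2. SE are the fold change divided by the root of F. Alternatives were other scalings and count filters, DESeq2 1.42.0, limma 3.58.1 (voom), a replicate block, an enzyme covariate and left-out libraries. Correlations used 100000 permutations, or all of them within a genotype (SciPy 1.17.1). Positions and exon lengths are from GENCODE M21 on GRCm38, the assembly that mm10 names, matched by symbol, and copies were sought with BLAST 2.17.0. Named genes are the 10 genes, Axl and Mertk, called genes of each secretion list (otherwise the 2 most counted) and the 3 genes most like each of the 10 (among genes that average 1 or more in log2 CPM, predicted genes excluded). Others are marked as chosen after their values were seen. No 2 libraries of a genotype were near-identical (lowest chi-square per degree of freedom 9.15), so all 12 were counted. Depth limits Vamp8, with at most 11 counts per library.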

Additional observations from a re-analysis of the deposited data

Results flagged for a closer look

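One value stood apart from its group. Zg16 in AMKO 1 was 2889 CPM, while the other 5 AMKO libraries held at least 4184 CPM. On the log2 CPM scale the gap was 0.665 of the group's range, above Dixon's critical value of 0.625 for 6 samples, whereas in plain CPM it was 0.602 and below that value, as were the other 19 groups. Chance gives about 1 in 20 such groups, and 20 groups of values were examined. AMKO 1 was the lowest AMKO library for 5 of the 9 tested genes (Sycn, Zg16, Rab3d, Stxbp2 and Cuzd1) and had the lowest digestive enzyme mean of the 12 libraries (10.8 log2 CPM, against 10.97 to 11.8). It also had the highest summed level of B and plasma cell markers, 208 CPM against 0.897 to 81.4 CPM elsewhere (Igkc and Ighm were at 0), and the second highest of macrophage markers, 1537 CPM. Their part in the low values was not tested. Without AMKO 1 the log2 fold change of Zg16 was 0.33 (adjusted p = 0.147) and that of Sycn 0.36 (adjusted p = 0.0908), both by edgeR.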

How the results depend on the processing

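In the reported fit, 794 genes were called in all. The total was 456 with total-count scaling (428 of them among the 794), 1267 by DESeq2 (794 among them), 1664 by limma voom with quality weights (780), 167 against WT 4 to 6 alone (164), 231 against WT 1 to 3 alone (192) and 98 without the 4 leukocyte-poor libraries (94). Leaving out 1 library gave totals of 411 (without AMKO 3) to 1140 (without AMKO 5). Of the 10 genes, 1 was called in the reported fit and 0 with RLE scaling, with the 50 most counted genes left out of TMM, with no filter on counts, with the replicate block, with either 3 wild type libraries alone and without the leukocyte-poor ones, 2 by limma voom, and 0 to 1 with 1 library left out. The log2 fold change of Cuzd1 kept its sign but lost its call at -0.49 (RLE, adjusted p = 0.0565), -0.49 (the 50 most counted genes left out of TMM, 0.0537), -0.49 (no filter, 0.0842), -0.49 (replicate block, 0.0507), -0.52 (WT 4 to 6 alone), -0.47 (WT 1 to 3 alone) and -0.49 (without the leukocyte-poor libraries), and ran from -0.57 to -0.42 with 1 library left out. Fewer samples enter the last 4 of these fits. With no filter the adjustment ran over more genes. The unadjusted edgeR p of Cuzd1 was then 0.00277, against 0.00286 in the reported fit. The cause of the lost call was not tested in any of these settings. Rab27b ran from -0.0796 to 0.0156 with 1 library left out and changed sign without WT 2 (0.0156, adjusted p = 0.938). Apart from Cuzd1 and Stx3, no tested gene of the set changed its side of the threshold in any of the 25 alternatives.

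The replicate numbers do not pair the samples by the labels. Same-numbered libraries had correlations of deviations from -0.18 to 0.40, and 2 of 6 wild type libraries (WT 1 and WT 6) correlated best with their own number, so the block, under which 910 genes were called, shows only what the number takes up. The ratio of Cuzd1 to Sycn, Zg16 and Gp2 kept its sign in all 15 settings tried, which were chosen after seeing the data. Each of these only left out libraries. As the groups did not overlap in this ratio, no such setting could change the sign, so this is no test of the result.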
